A study of Mus musculus with 2 samples.

Results

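The nuclear genes of the respiratory chain were examined for peaks of the repressor PARIS in mouse hippocampus. Members were the peaks whose assigned gene symbol began with Nduf, Uqcr or Atp5, began with Cox followed by 4 to 8, or was Sdha, Sdhb, Sdhc or Sdhd, with pseudogenes marked -ps left out. The rule took 206 of 99797 peaks, and these carried 68 gene symbols. Of these symbols, 67 were protein-coding genes and 1 was the pseudogene Ndufb4c, with 2 peaks. Since a gene without a peak cannot enter such a list, all 93 protein-coding genes of the annotation with such names, of 21911 in all, were also followed from their own start. Under the assignment rule, 26 of the 93 had no peak.

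PARIS is a zinc-finger repressor encoded in the mouse by Zfp746. CUT&Tag uses an antibody to bring a transposase to a chromatin protein, so that DNA beside that protein is cut and sequenced. The study made 1 library with an antibody to the FLAG tag and 1 with IgG as negative control, from untreated hippocampus of C57BL/6J mice with the genotype CamK-PARIS, which both libraries share. The labels state neither the promoter or cells in which PARIS was produced nor the age or number of the animals, and no library from mice without that genotype was analysed here. With 1 library per antibody there is no replicate error, no difference between antibodies was tested, and every value describes the anti-FLAG peak list. The IgG library enters only through the authors' peak calling, sequencing depth is unknown, and hippocampal marker genes cannot be checked in a list of peaks.

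Oxidative phosphorylation runs through 4 electron-transferring complexes, numbered I to IV, and ATP synthase, called complex V. Most of their subunits are encoded in the nucleus, and the coactivator PGC-1 alpha, encoded by Ppargc1a, raises their transcription together with the factors NRF1, GABP (an ETS-family factor), the estrogen-related receptors (ERR) and YY1. PARIS is known for repressing Ppargc1a through insulin response sequences, so these genes are regarded as its downstream programme. The question here was whether the anti-FLAG peaks also lay at the genes themselves. No peak lay on the mitochondrial genome, which encodes the remaining subunits.

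The DNA around the start of 8 members is shown first, each of which holds a motif that is counted further below. These 8 do not stand for all 93 members, of which 18 held the ETS motif in the promoter. Each sequence runs from 120 bp before to 30 bp into the gene, 5′ to 3′ on the gene's own strand, from the RefSeq copy of GRCm38.p6, the assembly called mm10. Capitals mark a match to 1 of 5 motifs, read on either strand: CCGGAAG (ETS factors), GCGCATGC (NRF1), AAGATGGCG (YY1), TGACGTCA (the cAMP response element, CRE) or TCAAGGTCA (ERR). The first 6 starts had a peak within 1 kb, and the last 2, Uqcrq and Atp5g3, had none.
Uqcrh (chr4:116075042-116075191, minus strand): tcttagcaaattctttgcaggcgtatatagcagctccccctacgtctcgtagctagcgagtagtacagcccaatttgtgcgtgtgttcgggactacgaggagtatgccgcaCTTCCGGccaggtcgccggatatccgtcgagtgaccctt
Cox8a (chr19:7217587-7217736, minus strand): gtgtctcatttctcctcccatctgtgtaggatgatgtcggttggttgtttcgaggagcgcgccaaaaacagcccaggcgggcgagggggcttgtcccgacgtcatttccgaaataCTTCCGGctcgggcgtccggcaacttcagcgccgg
Cox6a1 (chr5:115348952-115349101, minus strand): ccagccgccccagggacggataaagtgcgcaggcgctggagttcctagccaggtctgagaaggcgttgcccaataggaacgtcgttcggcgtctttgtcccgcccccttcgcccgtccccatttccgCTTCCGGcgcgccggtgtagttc
Ndufaf8 (chr11:120098808-120098957, plus strand): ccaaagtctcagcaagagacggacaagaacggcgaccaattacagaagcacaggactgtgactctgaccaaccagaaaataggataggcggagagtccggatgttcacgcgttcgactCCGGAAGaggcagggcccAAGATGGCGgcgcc
Sdhb (chr4:140961083-140961232, plus strand): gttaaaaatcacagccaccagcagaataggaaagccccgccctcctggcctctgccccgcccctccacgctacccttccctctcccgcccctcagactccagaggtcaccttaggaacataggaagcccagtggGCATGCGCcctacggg
Ndufb2 (chr6:39592454-39592603, plus strand): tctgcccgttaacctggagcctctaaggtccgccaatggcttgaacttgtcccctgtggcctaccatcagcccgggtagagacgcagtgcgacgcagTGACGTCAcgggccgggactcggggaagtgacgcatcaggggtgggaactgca
Uqcrq (chr11:53430802-53430951, minus strand): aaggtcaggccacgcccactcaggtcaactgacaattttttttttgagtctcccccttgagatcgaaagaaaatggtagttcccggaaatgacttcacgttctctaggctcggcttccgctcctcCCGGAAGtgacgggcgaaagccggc
Atp5g3 (chr2:73911297-73911446, minus strand): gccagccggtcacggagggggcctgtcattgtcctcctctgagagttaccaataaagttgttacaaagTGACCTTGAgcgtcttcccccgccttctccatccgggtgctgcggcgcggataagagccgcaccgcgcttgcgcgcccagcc
The ETS word began 9 bases before the start of Uqcrh, 5 before Cox8a and 2 before Ndufaf8, and 7 bases after the start of Cox6a1 and 5 after that of Uqcrq, counting the first transcribed base as 0. In Ndufaf8 the YY1 word followed at base 16. The NRF1 word of Sdhb began at base 14, the CRE of Ndufb2 at -23 and the ERR word of Atp5g3 at -52. The ETS word therefore lay beside starts with a peak and beside a start without one. A match is a string of letters in the reference and not a measured binding site.

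A peak lay within 1 kb of the start of 51 of the 93 member genes, or 54.8% (95% Wilson interval 44.7 to 64.6%), where 39.4% of all protein-coding starts had one. The intervals cover counting error over genes of this 1 list only. The start itself lay inside a peak in 31 members (33.3%), against 20.4% of all protein-coding starts. Many peaks in the list had the same signal over almost their whole width, defined here as total signal of at least 99% of maximum signal times width, and these are called constant-height peaks. Without them 31 members (33.3%) kept a start peak, beside 27.8% of all genes. No member's nearest peak lay between 578 bp (Atp5l) and 1105 bp (Ndufa12), so the members with and without a start peak were not separated by small differences around 1 kb.

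The share stood close to that of other widely expressed gene families and, among CpG-rich starts, to that of all genes. Among genes for mitochondrial ribosomal proteins 43 of 78 (55.1%) had a start peak, among cytosolic ribosomal proteins 54 of 102 (52.9%) and among proteasome subunits 22 of 40 (55.0%). Starts were called CpG-rich when the surrounding 1000 bp had at least 50% GC and an observed-to-expected CpG ratio of at least 0.6, and 69 members (74.2%) were, against 44.4% of all genes. Of these 69, 41 (59.4%) had a start peak, and the share of all CpG-rich starts was 59.9%. Of the other 24 members, 10 (41.7%; interval 24.5 to 61.2%) had one, beside 22.9% of all other starts. The part of CpG content in the members' share was not tested beyond these values.

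Members often lie head to head with a neighbour, which here means a protein-coding gene on the opposite strand starting within 1 kb upstream or overlapping by up to 100 bp. Of 26 such members, 15 (57.7%) had a start peak, and 58.8% of all head-to-head starts did. Of the other 67 members, 36 (53.7%) had one, against 37.8% of all such genes. A peak between a pair of starts cannot be given to 1 of them. Among the 51 members with a start peak, the tallest of these peaks was assigned by the authors to another gene in 10, among them Cox4i1, Ndufa13 and Uqcrh.

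**Figure D1:**
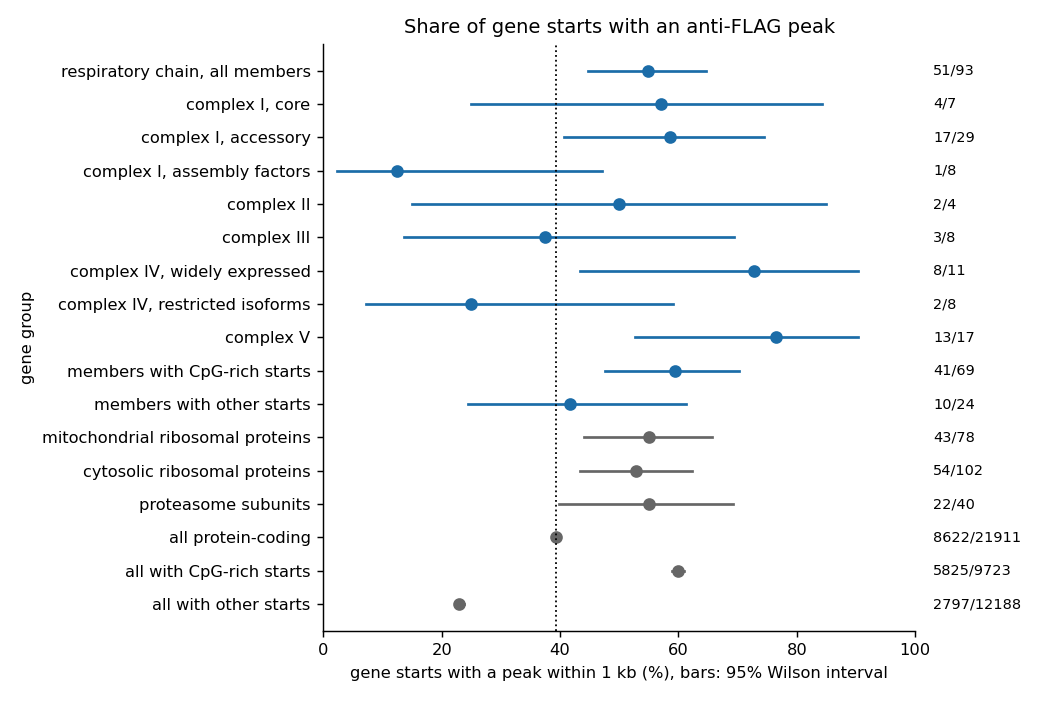
Percentage of gene starts with an anti-FLAG peak within 1 kb (points) and 95% Wilson intervals (bars), with counts at the right; blue marks members and grey other genes, and the dotted line is the 39.4% of all protein-coding genes. Complex V and complex IV sit to the right of the line, and the Ndufaf assembly factors and restricted isoforms to its left. CpG-rich members (59.4%) sit beside all CpG-rich genes (59.9%). The supercomplex factor Cox7a2l is left out of the complex IV point here.

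Complex I oxidises NADH and hands the electrons to ubiquinone. Of its 7 nuclear core subunits, which carry the redox centres, 4 had a start peak. Maximum signal is the authors' highest coverage within a peak, and over all 99782 annotated peaks its median was 101. Ndufv1, which binds NADH and flavin, and Ndufv2, an iron-sulfur subunit, each had a start peak of 141. Ndufs1, another iron-sulfur subunit, had a constant-height peak of 95. Ndufs3, Ndufs7 and Ndufs8 had none, the nearest peaks being 13195, 4642 and 1424 bp away. The authors placed a constant-height peak of 69 assigned to Ndufs7 at 571 bp from a transcription start other than the one used here.

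Among the 29 accessory subunits of complex I, which surround the core, 17 had a start peak (58.6%), and their heights spread widely. Ndufb5 reached 458 in a peak at chr3:32736718-32737343 that covered its start. Ndufa13, also known as GRIM-19, had 3 start peaks of 370, 230 and 195, the tallest at chr8:69902690-69903664 upstream of the start and assigned to Yjefn3. Ndufb2 reached 260 and Ndufc1 233, the latter in a peak 1721 bp wide. Ndufab1, the mitochondrial acyl carrier protein, had 196 and Ndufs4, a subunit needed for a stable complex, 158 in a constant-height peak. Between 136 and 71 lay Ndufb9, Ndufa6, Ndufa8, Ndufb4, Ndufa10, Ndufb6, Ndufb3, Ndufs6 and Ndufv3. Of these, the peaks of Ndufa8, Ndufb4, Ndufa10 and Ndufb3 had constant height. The lowest were Ndufa5 with 24 and Ndufa3 with 21, both constant-height peaks that did not cover the start. The other 12 accessory subunits had no start peak, and for Ndufb11 the nearest peak was 40177 bp away.

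Assembly factors of complex I help build it and are not part of the finished enzyme. The naming rule took the 8 called Ndufaf, of which 1 (12.5%, interval 2.24 to 47.1%) had a start peak. All 8 starts were CpG-rich. Other assembly factors, outside the naming rule, are counted further below. The Ndufaf gene with a start peak was Ndufaf8, with a peak of 170 at chr11:120098287-120099471. The highest point of this peak lay 1 bp from the start, and the peak holds the ETS and YY1 words shown above. Ndufaf5 and Ndufaf6 each had 5 assigned peaks and none within 1 kb of the start. The nearest to the start of Ndufaf5 was 31532 bp away and the nearest to Ndufaf6 1247 bp. The count of 1 of 8 is small. Its interval includes the 39.4% of all genes but not the 59.9% of all CpG-rich starts that had a peak. It overlaps the intervals of the accessory (40.7 to 74.5%) and core subunits (25 to 84.2%), and no difference was tested.

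Complex II, succinate dehydrogenase, had a start peak at 2 of its 4 subunits. Sdhb, the iron-sulfur subunit, had a start peak of 274 at chr4:140961106-140961999, and Sdha, the flavoprotein, a constant-height peak of 72. The membrane anchors Sdhc and Sdhd had no assigned peak, and the nearest peaks were 30285 and 21408 bp from their starts. All 4 starts were CpG-rich.

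Complex III passes electrons from ubiquinol to cytochrome c, and 3 of its 8 nuclear members had a start peak. Uqcrh, the hinge protein, had 291 in a peak at chr4:116074880-116075709 that the authors assigned to Lrrc41, whose start faces it. Of the core proteins, Uqcrc1 reached 263, and Uqcrc2 127 in a constant-height peak. Uqcrfs1, the Rieske iron-sulfur protein, and Uqcrb, Uqcrq, Uqcr10 and Uqcr11 had none, at distances from 2789 bp (Uqcr10) to 27339 bp (Uqcrb). Cyc1, the cytochrome c1 of the same complex, falls outside the naming rule and had a start peak of 207.

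Complex IV, cytochrome c oxidase, held the tallest start peak of any member. Cox4i1, the main form of subunit 4, had a maximum of 559 in a peak of 1426 bp at chr8:120667545-120668970, which covered the start and was assigned to Emc8. This value lay above that of 99% of all genes with a start peak, and its total signal ranked 386 among all peaks. The 4 peaks assigned to Cox4i1 by the authors did not include it, so the assignment rule alone missed the largest peak at a member. Of 11 widely expressed subunits 8 (72.7%, interval 43.4 to 90.3%) had a start peak, and in 7 the start lay inside a peak. CpG-rich were 9 of the 11 starts. The interval includes the 59.9% of all CpG-rich starts that had a peak, though not the 39.4% of all genes. Without constant-height peaks 5 of the 11 (45.5%) kept a start peak, beside 27.8% of all genes and 44.8% of all CpG-rich starts. Cox8a had 174, Ndufa4, which is now counted with complex IV, 156, Cox6a1 138, Cox5b and Cox6b1 124 each, Cox7c 122 and Cox7a2 99. The peaks given for Cox5b, Cox6b1 and Cox7a2 had constant height. Those given for Ndufa4 and Cox6b1 did not cover the start, which lay in constant-height peaks of 60 and 34. Cox5a, Cox6c and Cox7b had none. The supercomplex factor Cox7a2l had 115.

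Several complex IV subunits have a form restricted to some tissues, and 2 of 8 such forms had a start peak (25%, interval 7.15 to 59.1%). None of the 8 starts was CpG-rich, and 22.9% of all starts that were not CpG-rich had a peak. The widely expressed form had a start peak and its counterpart none for Cox4i1 against the lung form Cox4i2 (nearest peak 1679 bp), Cox6a1 against the muscle form Cox6a2 (6872 bp), Cox7a2 against the muscle form Cox7a1 (8961 bp), and Ndufa4 against Ndufa4l2 (1205 bp). Cox8a had a start peak and neither Cox8b nor Cox8c did, at 3037 and 4059 bp. Of the 3 testis forms, Cox8c had none, while Cox6b2 and Cox7b2 had a start peak. Cox6b2 had 3 start peaks of 195, 186 and 85 where Cox6b1 had 2 of 124 and 34, and Cox7b2 had 122 where Cox7b had none within 3675 bp. The peaks of Cox6b1 and Cox7b2 and the Cox6b2 peak of 85 had constant height. Whether the restricted forms are transcribed in this tissue was not measured.

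ATP synthase makes ATP from the proton gradient, and 13 of its 17 members had a start peak (76.5%; interval 52.7 to 90.4%). Of the 17 starts 15 (88.2%) were CpG-rich, and the interval includes the 59.9% of all CpG-rich starts that had a peak, though not the 39.4% of all genes. The start lay inside a peak in 4 (23.5%), beside 20.4% of all protein-coding starts and 34.3% of all CpG-rich starts. Without constant-height peaks 6 (35.3%) kept a start peak, beside 27.8% of all genes and 44.8% of all CpG-rich starts. All 4 stalk subunits had a start peak, with 190 at Atp5f1, 155 at Atp5j, 149 at Atp5o and 55 at Atp5h. Of these 4 starts only that of Atp5j lay inside a peak, and the Atp5f1 peak was assigned to Wdr77. Of the 5 subunits of the catalytic F1 head, Atp5e had 119, Atp5c1 96 and Atp5a1 53, and the catalytic beta subunit Atp5b and Atp5d had none within 1612 and 1362 bp. The authors placed a constant-height peak of 12 assigned to Atp5b at distance 0 from a transcription start other than the one used here. The membrane subunits Atp5k, Atp5j2 and Atp5l had 89, 77 and 28, and Atp5mpl had none. Atp5s, a coupling factor, had 137. The 13 maxima lay between 28 and 190, and no start peak of complex V reached 200. The peaks given for Atp5o, Atp5h, Atp5c1, Atp5a1, Atp5j2, Atp5l and Atp5s had constant height.

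The 3 genes for subunit c differ in promoter and leader but encode the same mature protein of the rotor ring. Atp5g1 had a start peak of 190 whose highest point lay at -171 bp from the start, and Atp5g2 had 93 at 959 bp downstream. Atp5g3 had no peak within 17095 bp of the start shown above, and the authors assigned 5 peaks to it, the tallest with 229 at a distance of 187624 bp. All 3 starts were CpG-rich.

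**Figure D2:**
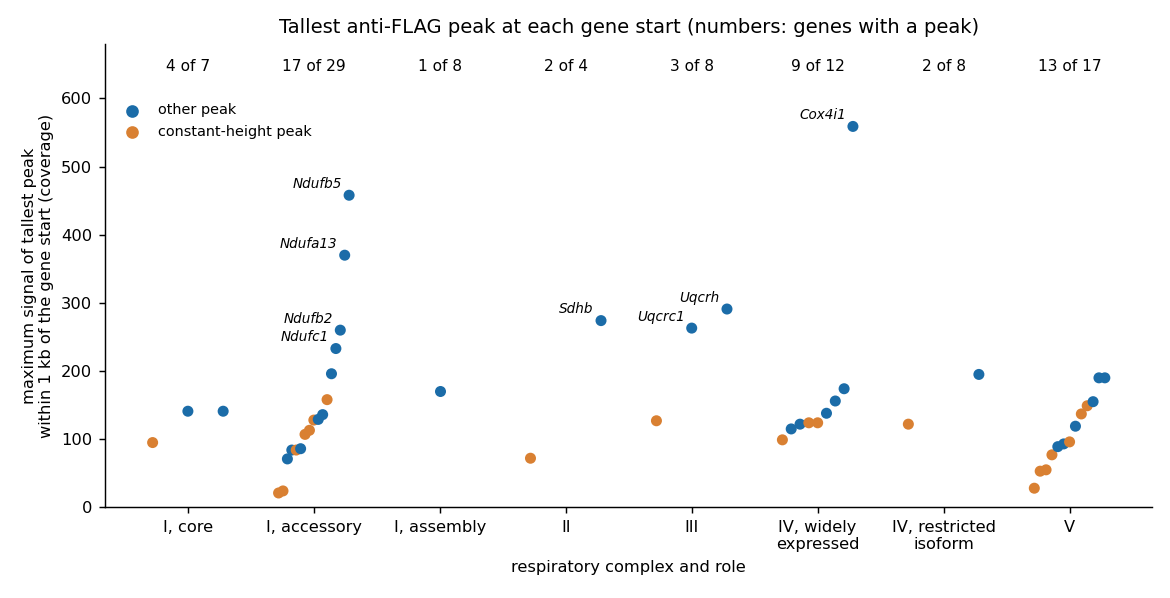
Maximum signal (coverage) of the tallest anti-FLAG peak within 1 kb of each member gene's start, by complex and role; each point is 1 gene, orange points are constant-height peaks, and the numbers above give genes with a start peak of all genes in the group. Cox4i1 (559), Ndufb5 (458) and Ndufa13 (370) stand above the rest, and complex V stays below 200; Cox7a2l is included with the widely expressed complex IV genes, and 1 complex I gene is not drawn.

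As a group the members' start peaks were not taller than those of other genes. The tallest start peak per member had a median maximum of 128 (quartiles 94 and 182), against 136 (92 and 209) over all genes with a start peak. A maximum of 200 or more was reached by 9 members (17.6% of the 51), among them Cox4i1, Ndufb5, Ndufa13, Uqcrh, Sdhb, Uqcrc1, Ndufb2 and Ndufc1, and by 27.7% of all genes with a start peak. Under 60 lay 5 members (9.80%) and 10.8% of all such genes. Just 3 members lay above the 90th percentile of all genes with a start peak, and 27 lay below the median.

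The 64 start peaks of the 51 genes varied in place and shape. The highest point of the tallest lay upstream of the start in 30 genes and downstream in 21, at a median distance of 172 bp, and within 250 bp in 33. The peak covered the start in 28 of the 51. In 21 it had constant height, among them the lowest peaks, Ndufa3, Ndufa5, Atp5l, Atp5a1 and Atp5h, and none of the 9 members at or above 200. At least 2 start peaks were found in 11 genes, and 3 of them in Ndufa13 and Cox6b2. A start peak not of constant height was found in 31 of the 51, beside 6088 of all 8622 genes with a start peak. The start lay inside any peak in 31 of the 51, beside 4473 of the 8622. The other counts here describe members only.

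**Figure D3:**
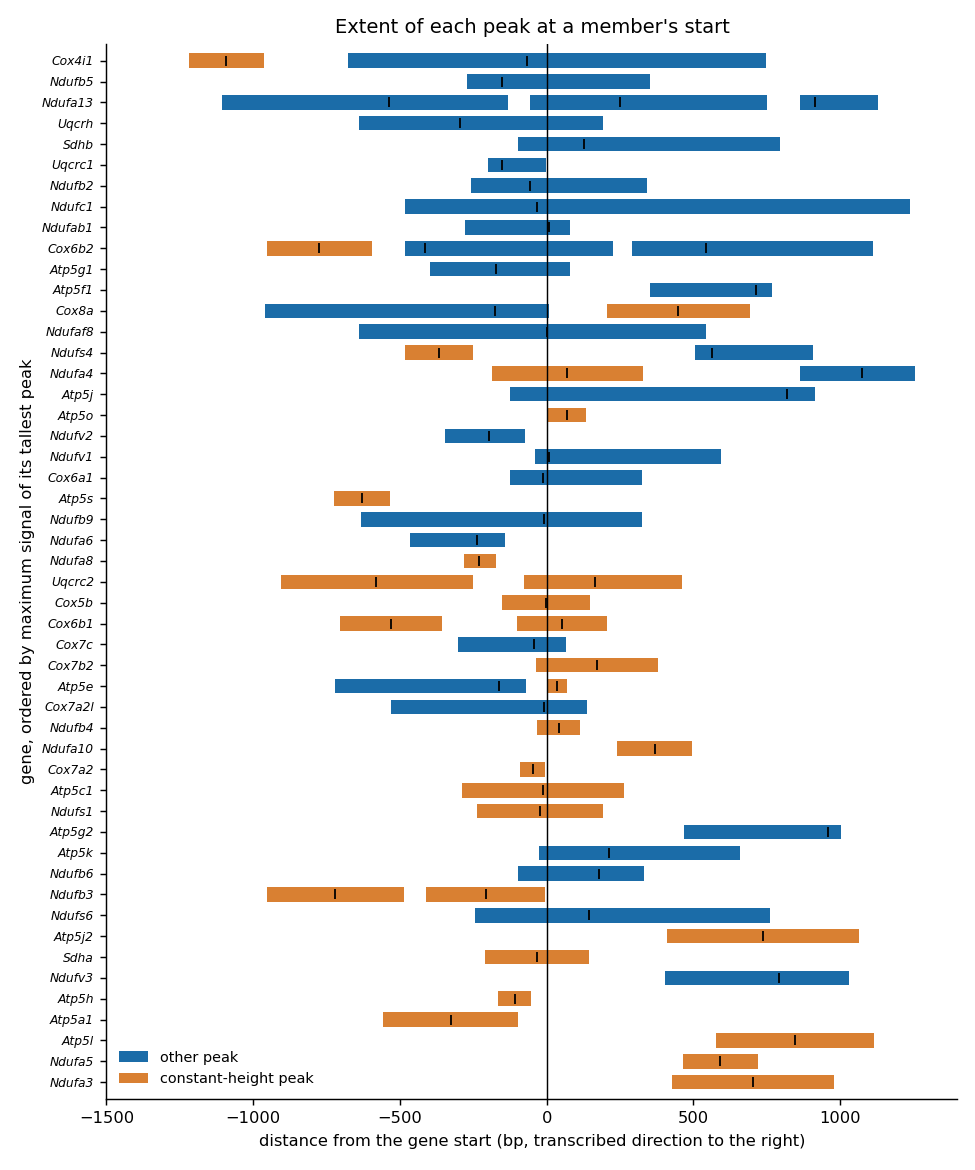
Extent of 62 of the 64 peaks within 1 kb of a member's start, at 50 of the 51 genes, as distance from the start in bp with transcription to the right; genes are ordered by the maximum signal of their tallest peak, black ticks mark each peak's highest point (the midpoint of its highest stretch), and orange bars are constant-height peaks. Tall peaks at the top are mostly blue and overlap the start, and constant-height peaks gather lower down; 28 of the 51 tallest peaks cover the start, 1 of them not drawn.

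The 206 assigned peaks were also read as the authors placed them. Within 1 kb of a transcription start site (TSS) lay 60 (29.1%; interval 23.3 to 35.7%), against 15.3% of all annotated peaks. Introns held 27 (13.1%) against 38.0% of all, and 84 (40.8%) were distal intergenic, against 31.9%. Members are short genes, with a median length of 7382 bp against 17430 bp for all protein-coding genes. Constant height was seen in 134 (65.0%), and in 63.3% of all annotated peaks. The median maximum signal of the 60 near a TSS was 108.5, against 116 for all peaks within 1 kb.

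A few genes took many of the assigned peaks, mostly far from their start. Cox7c had 16, of which 15 were distal and the farthest was 1290870 bp away. Ndufb4 had 12, Ndufa4 11, Ndufa10 9 and Atp5o 8. The tallest assigned peak beyond 1 kb belonged to Atp5o, with a maximum of 376 at chr16:91962103-91963556, at -30638 bp from its TSS. The next were Ndufv3 with 315 at 6882 bp and Ndufa6 with 252 at -7859 bp. Such peaks carry a member's name only because it is the assigned gene.

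The motifs of the factors that drive these genes were counted in promoters from 250 bp before to 50 bp after the start, on either strand. NRF1 (GCGCATGC) was found in 10 member promoters (10.8%) and in 3.71% of all protein-coding promoters. Among CpG-rich promoters the shares were 8 of 69 for members (11.6%; interval 5.99 to 21.2%) and 6.14% for all. It was in 5 of the 51 members with a start peak and in 5 of the 42 without. Those with a start peak were Sdhb, Atp5k, Cox6a1, Atp5l and Ndufa6, and those without were Ndufaf4, Ndufaf5, Uqcr11, Cox8c and Ndufa11.

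The ETS word CCGGAAG was found in 18 member promoters (19.4%) and in 10.8% of all. Among CpG-rich promoters the shares were 20.3% for members and 18.6% for all. In members with a start peak it was found in 12 of 51 (23.5%), and in those without in 6 of 42 (14.3%), with overlapping intervals of 14.0 to 36.8% and 6.72 to 27.8%. In 14 of the 18 it began within 50 bp of the start (77.8%), against 61.5% of all promoters that hold it.

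The other words were rare or no more frequent than elsewhere. TCAAGGTCA, of ERR, was found in 2 member promoters, Atp5g3 and Sdhd, neither of which had a start peak, and in 0.475% of all. AAGATGGCG, of YY1, was in 4 (Ndufa9, Atp5h, Ndufaf8 and Ndufa2), beside 1.69% of all. TGACGTCA, the CRE, was also in 4 (Ndufa10, Ndufb2, Uqcrfs1 and Ndufa11), beside 2.43% of all. The Sp1 word GGGCGG was in 40 (43.0%), the same share as the 43.0% of all promoters, and in CpG-rich members (49.3%) it was less frequent than in all CpG-rich promoters (71.7%). The insulin response sequence, TATTTTT or TATTTTG, reported as the element PARIS binds, was in 11 (11.8%), against 10.1% of all. Of the 11, 6 had a start peak, and these were Uqcrh, Atp5j2, Ndufa4, Cox6b2, Atp5o and Cox7a2l.

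At the peaks themselves the words were counted in 200 bp around the region of maximum signal. Of the 60 member peaks within 1 kb of a TSS, 10 held the ETS word (16.7%; interval 9.31 to 28.0%), against 4.54% of all 15279 such peaks on the main chromosomes. They were peaks of Ndufs1, Ndufaf8, Ndufa6, Atp5j, Atp5e, Sdhb, Cox6a1, Atp5j2, Cox6b2 and Cox6b1. Mean GC of the windows was 54.9 ± 10.4% (SD over 60 windows) for members and 57.5 ± 10.7% for all. Restricted to peaks without constant height, the shares were 7 of 27 (25.9%) and 5.74%, and restricted to peaks within 250 bp of a TSS, 9 of 44 (20.5%) and 6.60%. Peaks of mitochondrial ribosomal protein genes held it in 10 of 46 (21.7%), those of cytosolic ribosomal proteins in 10 of 81 (12.3%) and those of proteasome subunits in 2 of 33 (6.06%).

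The YY1 word was in 3 of the 60 windows (5% against 0.602%), at Ndufaf8, Ndufs6 and Ndufc1, and the CRE in 2 (3.33% against 0.831%), at Sdhb and Ndufb2. The NRF1 word was in 1, at Atp5g2, and the ERR word in none. Peaks of mitochondrial ribosomal protein genes held the YY1 word in 2 of 46 (4.35%). Those of cytosolic ribosomal proteins held it in 3 of 81 (3.7%) and those of proteasome subunits in 1 of 33 (3.03%). The insulin response sequence was in 6 of the 60 member windows (10%, interval 4.66 to 20.1%), against 5.41% of all. It was in 4 of 46 peaks of mitochondrial ribosomal protein genes (8.7%) and in 8 of 81 of cytosolic ribosomal proteins (9.88%). Among those of proteasome subunits it was in 1 of 33 (3.03%). Over all 206 member peaks the insulin response sequence was in 23 (11.2%), against 9.97% of all peaks. Of these 23 member peaks, 19 had constant height, beside 65.0% of the 206 member peaks and 63.3% of all annotated peaks. The share among all peaks that hold the sequence is not given here.

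**Figure D4:**
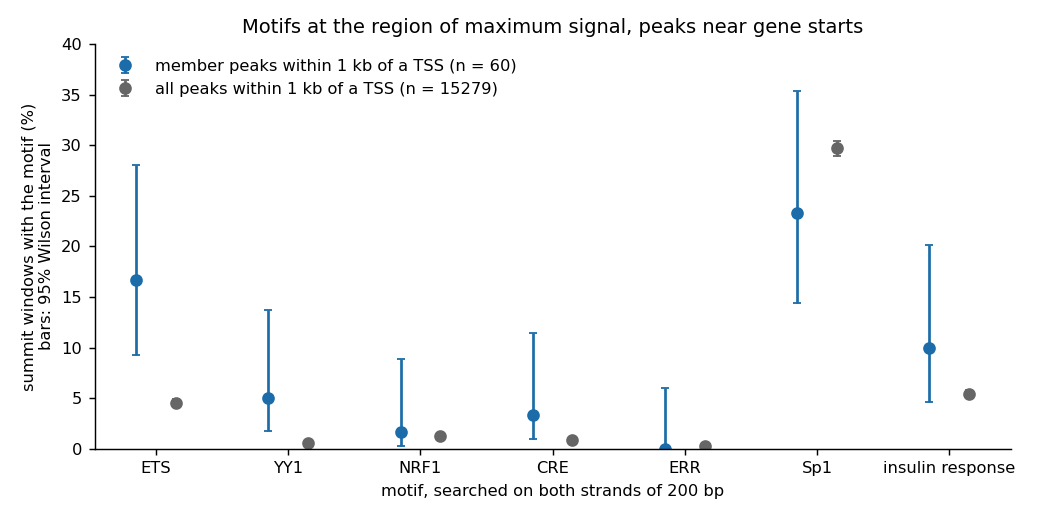
Percentage of 200 bp windows at the region of maximum signal that hold each motif on either strand, for the 60 member peaks (blue) and all 15279 peaks (grey) within 1 kb of a TSS; bars are 95% Wilson intervals. The ETS word stands at 16.7% in members and 4.54% in all, and the Sp1 word at 23.3% and 29.7%.

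The regulators of the programme, outside the naming rule, had start peaks in 12 of 17 (70.6%, interval 46.9 to 86.7%), beside 39.4% of all protein-coding starts. In 10 of them a start peak was not of constant height. Of the 17 starts 13 (76.5%) were CpG-rich, and the interval includes the 59.9% of all CpG-rich starts that had a peak. Ppargc1a itself had no start peak, and the nearest peak lay 40182 bp from its start, although the authors assigned 18 peaks to the gene. The related coactivators Ppargc1b and Pprc1 had 378 and 328. Yy1 had 220, Creb1 212, Zfp746 166, and Tfam, which packages and transcribes mitochondrial DNA, 96, while Nrf1 had 90. Esrra, which encodes the main ERR, had none within 1072 bp. Gabpa, the DNA-binding subunit of GABP, starts on the opposite strand beside the start of the stalk subunit Atp5j, and 1 peak of 155 at chr16:84834709-84835751 covered both starts. Of 32 electron carriers and other assembly factors 13 (40.6%, interval 25.5 to 57.7%) had a start peak, beside 39.4% of all protein-coding starts. Of these 32 starts 23 (71.9%) were CpG-rich, and the interval lay below the 59.9% of all CpG-rich starts. No difference was tested. Among the 13 were Cox14 with 624, Timmdc1 with 376 and Cycs, which encodes cytochrome c, with 131.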

How the data were processed

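Per the labels' protocols, the authors used Bowtie2 and the mm10 genome for the trimmed read pairs, kept alignments of good quality after deduplication, and ran SEACR with the IgG library as control. Versions and the SEACR settings are not given in the sources used here. The deposited peak list holds the authors' total and maximum signal (coverage) per peak, and a second deposited table holds the assigned gene, class and distance to a TSS. How that table was made is not given in the sources used here. Of 99797 peaks, 99782 were annotated. Depth per library is unknown.

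Members, gene lists and tests were chosen with earlier results of these data known. Gene starts were the 5′ ends of protein-coding genes in GENCODE M21, and a second gene model of Atp5o was left out. The authors' table calls Atp5f1 by the name Atp5pb, and Atp5s by a name outside the rule. RefSeq's promoter table held 74 of the 93 members by symbol, 62 of them with a start within 100 bp. With 1 library, shares carry Wilson intervals and no test was made. Genes were named as the tallest and lowest start peaks of each role group, all other members with a start peak except 1 gene that is not reported here and stays in the counts, those without one that had the most assigned peaks, and the isoform pairs. The search for start peaks and motifs was tested on simulated data. Python 3.11.15, pandas 2.3.3 and pysam 0.24.0 were used. Alternatives varied the peaks, the distance, the start and the genes used.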

Additional observations from a re-analysis of the deposited data

How the results depend on the processing

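With 1 anti-FLAG library, none of these values has a replicate error, and depth cannot be weighed. No paired analysis was possible because each antibody has 1 library and the result comes from no test. For 6 results, 35 alternatives were computed. In 24 the value stayed within the 95% interval of the main one (Wilson for shares, binomial order statistics for the median). The share of member starts with a peak within 1 kb (54.8%) became 33.3% without constant-height peaks, 67.7% within 3 kb, 37.6% with peaks of above-median maximum signal, 12.9% with the 10% of peaks of highest total signal, 33.3% where the start had to lie inside a peak and 44.1% with only peaks assigned to the gene. Fewer or more peaks or a wider window enter by construction. In 11 of 13 alternatives of this share the members lay above all genes, the exceptions being the highest total signal (12.9% against 13.6%) and CpG-rich starts (59.4% against 59.9%). The CpG-rich, head-to-head (53.7%) and RefSeq-start (59.5%) settings were chosen after seeing the data. The share of member peaks within 1 kb (29.1%) became 37.5% without constant-height peaks, 41.3% within 3 kb and 47.4% among the 10% with highest total signal. The median maximum signal of member peaks within 1 kb (108.5; interval 86 to 124) became 141 without constant-height peaks, where all such peaks had 160. The share of constant height (65.0%) became 57.7% in peaks at least 200 bp wide. The cause was not tested.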

Other observations

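None of the 3 X-linked members (Ndufa1, Ndufb11 and Cox7b) had a peak within 1 kb of its start, where 28.1% of 948 X-linked protein-coding genes had one. Among the 90 autosomal members 51 (56.7%) had a start peak, beside 40.2% of all autosomal genes. With 3 X-linked members this is a description only. Of the 42 members without a start peak, 21 had the nearest peak 1 to 5 kb from the start and 16 beyond 10 kb.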
